A study of Mus musculus with 4 samples.

Results

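The smooth muscle contractile genes examined here are Acta2, Actg2, Myh11, Myl9, Tpm1, Tpm2, Cnn1, Cnn2, Tagln and Des. They were taken by gene symbol from the array's probe annotation, and all 10 of 10 were found among 22180 genes with a value. Each had exactly 1 probe set that names it alone, so 10 probe sets of 41345 on the array carry these results. A further probe set names Des together with the predicted gene Gm15179 and was not used. It read log2 6.39 in both Ctcfl-line arrays, and log2 6.50 and 6.60 in wild-type cells with and without retinoic acid. All 10 genes were past the filter on low signal, for which the highest of the 4 arrays had to reach log2 6. It left 18310 genes for comparison.

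The RNA came from P19 cells, a mouse embryonal carcinoma line whose differentiation depends on the dose and culture form used with retinoic acid. There were 4 arrays in 4 conditions. Cells of the Ctcfl line were measured after 4 days in 10 µM retinoic acid and undifferentiated, in ethanol vehicle. Wild-type P19 cells were measured in the same 2 states. The Ctcfl line is a clone with stably integrated pBI-EGFP-FLAG-mCtcfl and pTA-N vectors, a Tet-Off system in which doxycycline keeps the mouse Ctcfl transgene silent. It was kept in 2 µg/ml doxycycline and grew without it for the last 2 days in both states. The labels conflict for wild-type cells, since the growth description gives ordinary medium and the sample characteristics give 2 µg/ml doxycycline. Clone, vectors, doxycycline history and Ctcfl therefore cannot be told apart in the line difference. With 1 array per condition there is no spread between replicates, and an array effect cannot be told apart from its condition.

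Smooth muscle cells contract when myosin filaments pull on filaments of alpha and gamma smooth muscle actin. Phosphorylation of the myosin regulatory light chain starts the cycle, tropomyosin lies along the actin filament, and calponin and transgelin bind actin beside it. Many of these genes are controlled by serum response factor, Srf, which binds a DNA element called the CArG box and acts with the coactivators myocardin and the myocardin-related factors. Several members, such as Cnn2, Myl9 and Tpm1, are also widely expressed outside muscle as parts of the actin cytoskeleton.

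The CArG box is a known element of many of these genes, so the RefSeq promoter windows (GRCm38.p6) were searched for it in the 250 bases before the start that the promoter table gives. The element reads the same on both strands, and its consensus is a C pair, 6 letters that are A or T, and a G pair. Windows were found for 7 of the 10 genes; Tagln, Actg2 and Myh11 had none in the table. An exact box lay before 2 genes, Myl9 and Cnn2, and 4 of the 7 windows held a box with at most 1 letter off, those of Acta2, Myl9, Tpm1 and Cnn2. Among all 32851 windows of the same length, 1.47% held an exact box and 18.6% a box with at most 1 letter off. The windows of Tpm2, Cnn1 and Des held neither. The boxes follow on the gene's own strand with 10 bases on each side, and capitals mark the box.
Myl9, exact, chr2:156775293-156775322, + strand: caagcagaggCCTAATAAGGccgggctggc
Myl9, 1 letter off, chr2:156775355-156775384, + strand: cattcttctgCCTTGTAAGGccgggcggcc
Cnn2, exact, chr10:79988534-79988563, + strand: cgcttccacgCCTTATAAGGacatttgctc
Acta2, 1 letter off, chr19:34255438-34255467, - strand: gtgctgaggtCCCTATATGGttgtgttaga
Acta2, 1 letter off, chr19:34255388-34255417, - strand: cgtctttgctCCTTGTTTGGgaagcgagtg
Tpm1, 1 letter off, chr9:67049415-67049444, - strand: gctcgggtccCCATATATAGtcatatccac
Tpm1, 1 letter off, chr9:67049274-67049303, - strand: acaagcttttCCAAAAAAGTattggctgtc
The exact boxes begin 161 bases before the start in Myl9 and 56 bases before it in Cnn2. The stretches of Acta2 and Tpm1 lie before the start used in the table but within the longer span annotated for each gene. A match describes the letters and is not evidence of binding.

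Ctcfl itself had log2 signals of 9.56 with and 10.41 without retinoic acid in the Ctcfl line, against 7.13 and 7.86 in wild-type cells. Its line effect in limma was log2 2.49 ± 0.15 (SE), with an adjusted p of 0.00645. Whether its probe set reads the transgene was not settled. Array medians lay between log2 6.95 and 6.96, and correlations between arrays between 0.961 and 0.985. The 1105 olfactory receptor genes served as a guide to background, with medians between log2 4.68 and 4.78 and 95th percentiles between 6.82 and 6.95. Actg2 lay below that percentile on 4 of 4 arrays, and the 9 other genes lay above it on 4 of 4. Probe sets of the same gene, over 874 genes that have several, differed in their log2 differences with an SD between 0.23 and 0.33. This SD measures disagreement between probe sets on the same arrays and holds no variation between cultures or arrays. Of the 10 embryonal carcinoma markers, 8 lay above the guide on both undifferentiated arrays. In RNA from whole cultures, fewer cells of a type and less RNA per cell cannot be told apart.

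The contractile genes did not share 1 direction with retinoic acid. Averaged over the lines, Myl9 and Tpm1 rose by just under 2-fold, and the other 8 genes did not pass the test. A higher signal with retinoic acid in both lines was seen in 6 genes (Acta2, Myl9, Tpm1, Tpm2, Cnn2 and Tagln), and a lower signal in both lines in 4 (Actg2, Myh11, Cnn1 and Des). The effect came from a limma model that adds a term for retinoic acid to one for the line, adjusted by Benjamini-Hochberg over all 18310 genes. In this test 2 of 10 rose and 0 fell, where 4.21% of all genes rose and 2.44% fell. The 10 genes and the lists below were chosen with earlier results of these data known, so counts beside such shares are descriptions. An unadjusted p under 0.05 was reached by 7 of the 10, 5 higher and 2 lower, and by 23.5% of all genes. The median effect was log2 0.41 for the 10 genes and -0.05 for all genes. All 10 had the same sign in both lines, as did 69.0% of all genes, though Actg2 was within the background guide on 4 of 4 arrays and Myh11 differed by log2 -0.01 in wild-type cells, so neither has a clear direction.

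**Figure D1:**
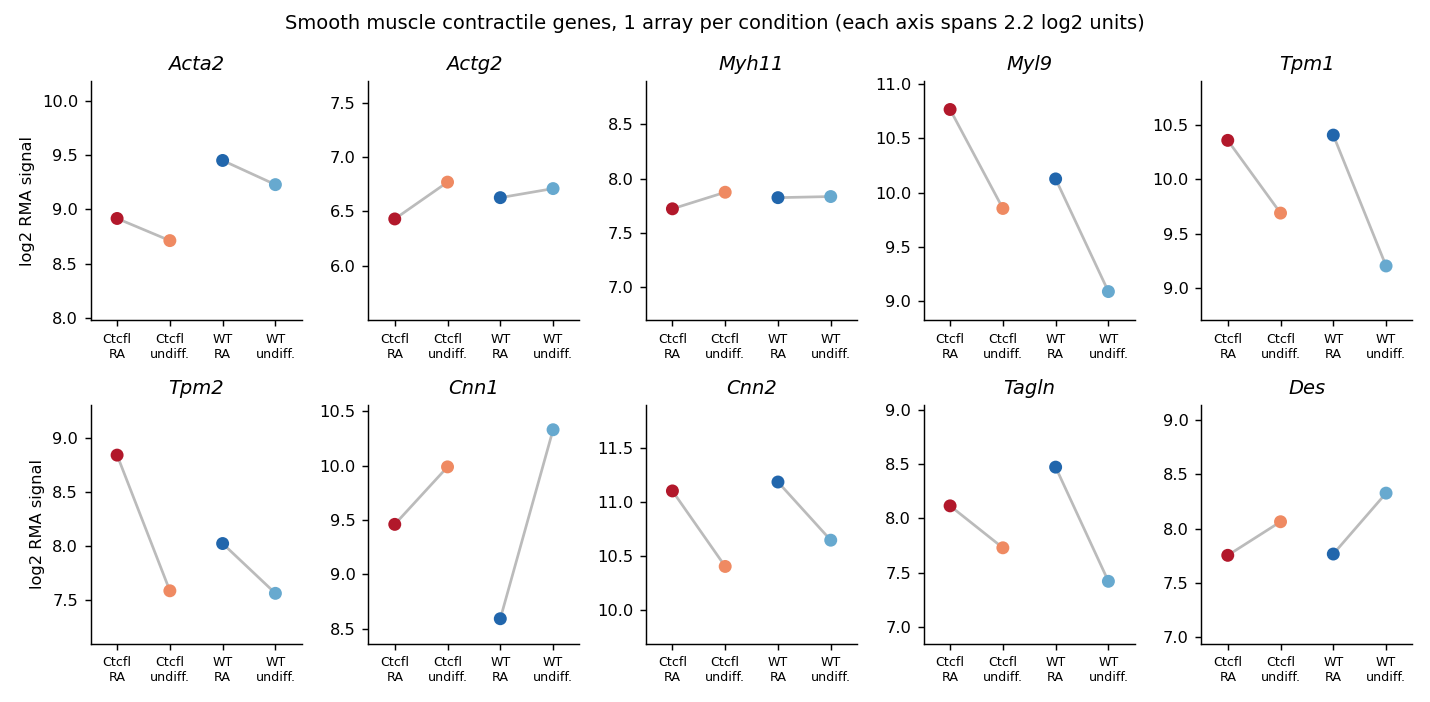
Log2 RMA signal of each of the 10 genes (vertical axes, all of equal height) on the 4 arrays, 1 point per array, with a line joining the 2 states of a line. Myl9 is higher with retinoic acid in both lines, Cnn1 is lower, and Myh11 spans log2 0.15 over the 4 arrays.

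Of the 2 actin genes, Acta2, which encodes the alpha smooth muscle actin of vessels and myofibroblasts, had log2 signals of 8.92 with and 8.71 without retinoic acid in the Ctcfl line, and 9.45 with and 9.23 without it in wild-type cells. Both wild-type arrays were higher than both Ctcfl-line arrays, and the states of a line differed by log2 0.20 in the Ctcfl line and 0.22 in wild-type cells. Its retinoic acid effect was log2 0.21 ± 0.15 (SE, adjusted p = 0.424 in limma). Actg2, the gamma actin of gut and bladder muscle, had log2 signals of 6.43 with and 6.77 without retinoic acid in the Ctcfl line, and 6.63 with and 6.71 without it in wild-type cells. Those values are all within the range of the olfactory receptor genes, so no fold is given.

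Myh11 encodes the smooth muscle myosin heavy chain, the most restricted marker of mature smooth muscle in this group. Its log2 signals were 7.72 with and 7.88 without retinoic acid in the Ctcfl line, and 7.83 with and 7.84 without it in wild-type cells. The 4 arrays lay within log2 0.15 of each other, less than the SD between probe sets of a gene. Myl9, a myosin regulatory light chain shared with non-muscle myosin, had log2 signals of 10.77 with and 9.85 without retinoic acid in the Ctcfl line, and 10.13 with and 9.09 without it in wild-type cells. Both states of the Ctcfl line were above the same state of wild type, and the retinoic acid array was the higher one in both lines, by log2 0.91 in the Ctcfl line and 1.04 in wild-type cells. Myl9 rose 1.96-fold with retinoic acid (log2 0.97 ± 0.15, SE, adjusted p = 0.0159 in limma).

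Tpm1 and Tpm2 encode the alpha and beta tropomyosins. Tpm1 had log2 signals of 10.36 with and 9.69 without retinoic acid in the Ctcfl line, and 10.41 with and 9.20 without it in wild-type cells. The retinoic acid arrays nearly coincided, and the undifferentiated wild-type array was the lowest. Tpm1 rose 1.91-fold with retinoic acid (log2 0.94 ± 0.18, SE, adjusted p = 0.0333 in limma). Tpm2 had log2 signals of 8.84 with and 7.59 without retinoic acid in the Ctcfl line, and 8.02 with and 7.57 without it in wild-type cells. Its undifferentiated arrays nearly coincided, and the Ctcfl line in retinoic acid stood highest, 2.38-fold above its undifferentiated state, against 1.37-fold in wild-type cells. The averaged effect of Tpm2 was log2 0.85 ± 0.21 (SE, adjusted p = 0.0702 in limma).

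The calponin genes had retinoic acid differences of opposite sign. Cnn1, basic calponin and a marker of differentiated smooth muscle, had log2 signals of 9.46 with and 9.99 without retinoic acid in the Ctcfl line, and 8.59 with and 10.33 without it in wild-type cells. Both undifferentiated arrays were above both retinoic acid arrays, and wild-type cells in retinoic acid were the lowest. Cnn1 was 1.44-fold lower with retinoic acid in the Ctcfl line and 3.34-fold lower in wild-type cells. Its averaged effect, log2 -1.13 ± 0.28 (SE), was the largest in size among the 10 genes and did not pass (adjusted p = 0.0672 in limma), with a standard error that carries the gap between the lines. It passed with quantile normalization of the 4 arrays (log2 -1.18, adjusted p = 0.0358 in limma), a setting that called 1492 of all genes, against 1217 as reported.

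Cnn2, the calponin of many non-muscle cells, had log2 signals of 11.10 with and 10.41 without retinoic acid in the Ctcfl line, and 11.18 with and 10.65 without it in wild-type cells. Both retinoic acid arrays were above both undifferentiated ones, with an averaged effect of log2 0.62 ± 0.15 (SE, adjusted p = 0.0653 in limma). Tagln encodes transgelin, also called SM22 alpha, an actin-binding protein related to the calponins and an early smooth muscle marker. Its log2 signals were 8.11 with and 7.73 without retinoic acid in the Ctcfl line, and 8.47 with and 7.42 without it in wild-type cells. Both retinoic acid arrays were again the higher ones, by 1.31-fold in the Ctcfl line and 2.07-fold in wild-type cells, and the averaged effect was log2 0.72 ± 0.20 (SE, adjusted p = 0.0884 in limma). Des encodes desmin, the intermediate filament of all muscle types, and had log2 signals of 7.76 with and 8.06 without retinoic acid in the Ctcfl line, and 7.77 with and 8.33 without it in wild-type cells. Its retinoic acid arrays coincided and lay below the undifferentiated ones, with an averaged effect of log2 -0.43 ± 0.15 (SE, adjusted p = 0.159 in limma).

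**Figure D2:**
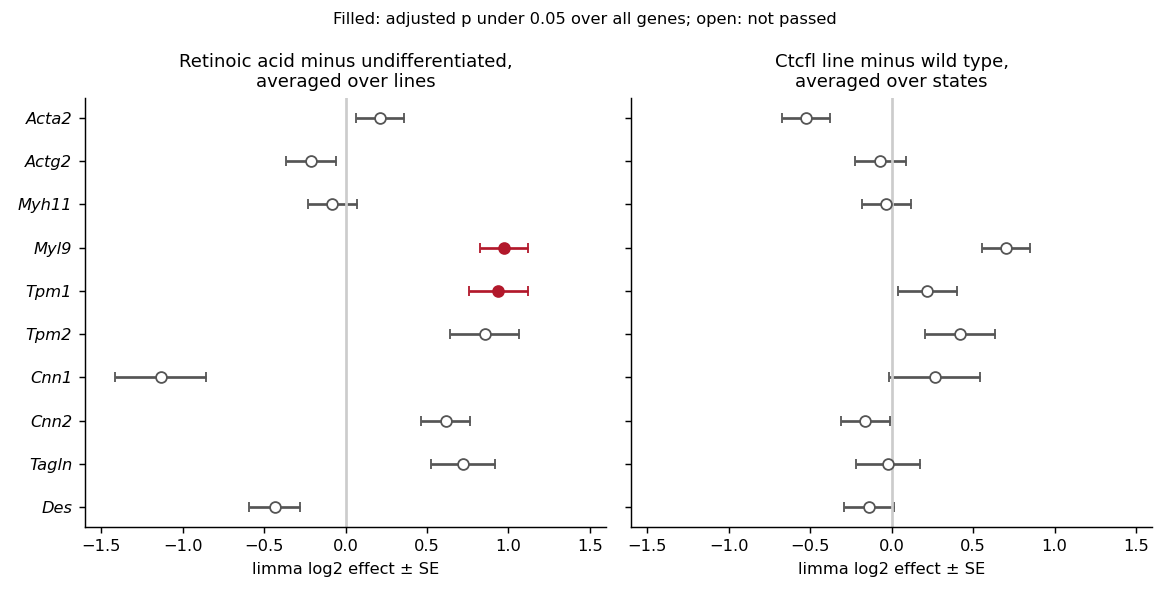
Effects from limma in log2 units with their standard errors for each of the 10 genes, for retinoic acid averaged over the lines (left) and the Ctcfl line minus wild type averaged over the states (right). Filled points, Myl9 and Tpm1 in the left panel, had an adjusted p under 0.05 over all genes.

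Within single lines, 1 of the 10 genes was at least 2-fold higher with retinoic acid in the Ctcfl line, Tpm2, and 0 were at least 2-fold lower, where 3.21% of all genes were higher and 1.5% lower. In wild-type cells 3 were at least 2-fold higher, Myl9, Tpm1 and Tagln, and 1 was lower, Cnn1, where 2.58% of all genes were higher and 2.62% lower. The median difference of the 10 genes was log2 0.29 in the Ctcfl line and 0.34 in wild-type cells, and that of all genes was -0.05 and -0.04. The span from the lowest to the highest gene was log2 1.78 in the Ctcfl line and 2.94 in wild-type cells.

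The design next asks how the Ctcfl line differed from wild type. In limma 0 of the 10 genes rose and 0 fell with the line, where 0.0273% of all genes rose and 0.0164% fell. An unadjusted p under 0.05 was reached by 2 of the 10 and by 9.81% of all genes. These were Myl9 and Acta2, which lay on opposite sides of 0. Myl9 was above wild type in the Ctcfl line by 1.56-fold with retinoic acid and 1.70-fold without it (log2 0.70 ± 0.15, SE, adjusted p = 0.293 in limma, higher in 2 of 2 states). Acta2 was below wild type by 1.45-fold with retinoic acid and 1.43-fold without it (log2 -0.52 ± 0.15, SE, adjusted p = 0.377 in limma, lower in 2 of 2 states).

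In retinoic acid 0 of the 10 genes were at least 2-fold apart between the Ctcfl line and wild type, where 1.23% of all genes were. In undifferentiated cells 0 were, where 1.82% of all genes were. The widest gaps in retinoic acid were those of Cnn1, 1.83-fold higher in the Ctcfl line, and Tpm2, 1.76-fold higher. Over the 10 genes the line difference had a median of log2 -0.07 with retinoic acid and 0.03 in the undifferentiated state, and that of all genes was -0.02 in both states.

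The response to retinoic acid itself differed at least 2-fold between the lines in 1 of the 10 genes, Cnn1, where 2.65% of all genes differed so far. Its difference of responses, the Ctcfl line minus wild type, was log2 1.21, or 2.31-fold, since the Ctcfl line was lower by log2 0.53 and wild-type cells by log2 1.74. Tpm2 had a difference of log2 0.79, with the larger increase in the Ctcfl line. Tagln and Tpm1 had differences of -0.67 and -0.54, with the larger increase in wild-type cells. The other 6 genes differed by less than log2 0.32, the SD between probe sets of a gene for this quantity. Single arrays give no test of these differences.

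**Figure D3:**
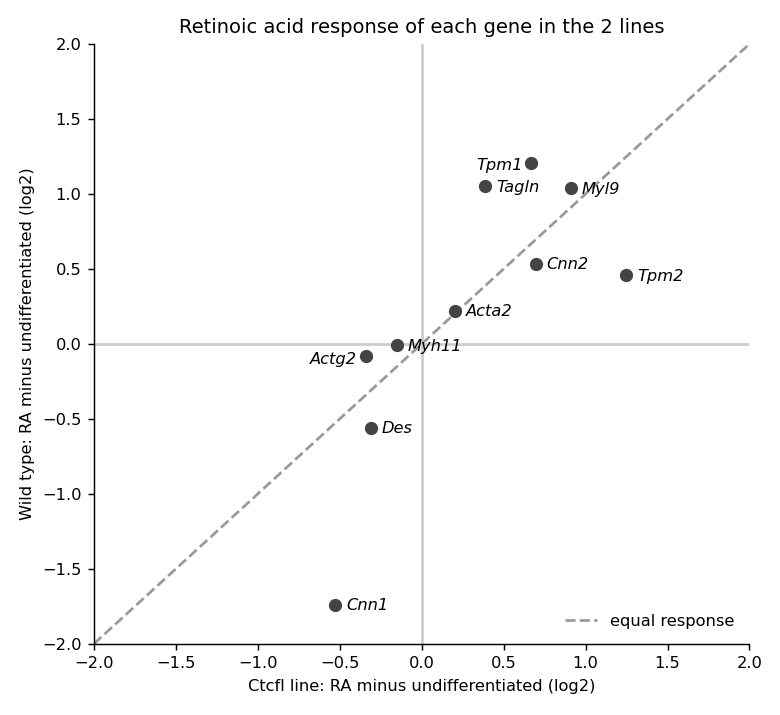
Log2 difference between retinoic acid and undifferentiated cells for each of the 10 genes, in the Ctcfl line (horizontal axis) and in wild-type cells (vertical axis), with the line of equal response dashed. Cnn1, Tpm2 and Tagln lie furthest off that line, with differences of log2 1.21, 0.79 and -0.67, whereas Acta2 and Myl9 lie close to it.

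The genes whose profile over the 4 arrays was most like that of Acta2 were Rap1gap2, Mmp11, Map3k1, Casp6, Elovl2 and Bmp3, at Euclidean distances of log2 0.03 to 0.10 between profiles centred on their mean. As their choice by this distance implies, each was, like Acta2, highest in wild-type cells in retinoic acid and lower in the Ctcfl line in both states. They encode a GTPase-activating protein of Rap1, a matrix metalloproteinase, a signalling kinase, a caspase, a fatty acid elongase and a bone morphogenetic protein. Among the 9 other members the nearest, Cnn2, ranked 4777 of 18309 genes by this distance, and the farthest, Cnn1, ranked 17943. Each profile rests on 4 values, so this likeness is a description.

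Srf and its coactivators did not pass the test for retinoic acid. Srf had log2 signals of 10.04 with and 10.34 without retinoic acid in the Ctcfl line, and 10.04 with and 10.23 without it in wild-type cells (effect log2 -0.25, adjusted p = 0.350 in limma). Myocd, which encodes myocardin, had log2 signals of 7.07 with and 7.25 without retinoic acid in the Ctcfl line, and 7.16 with and 8.18 without it in wild-type cells (effect log2 -0.60, adjusted p = 0.172 in limma). The undifferentiated wild-type array alone stood apart for Myocd. The coactivator genes Mrtfa and Mrtfb had effects of log2 0.36 and 0.22 (adjusted p = 0.214 and 0.410 in limma). Of 18 genes of Srf, its coactivators and cofactors, 1 rose and 0 fell, where 4.21% of all genes rose and 2.44% fell. The other 17 missed the threshold for retinoic acid. The gene that rose was Gata6, a zinc finger factor of primitive endoderm that is also expressed in vascular smooth muscle (8.47-fold, adjusted p = 0.000608 in limma). Of 19 Srf targets outside muscle, 1 rose and 1 fell, beside the same shares of all genes. Tgfb1i1, which encodes the focal adhesion protein Hic-5, rose 2.42-fold, and Egr2, an early response zinc finger gene, fell by 1.00 on the log2 scale (adjusted p = 0.00998 and 0.0154 in limma).

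Among 29 other genes of smooth muscle, 5 rose and 0 fell for retinoic acid, where 4.21% of all genes rose and 2.44% fell. The other 24 missed the threshold in limma, and the median of the 29 was log2 -0.09. Itga8, an integrin alpha subunit of mesenchyme and smooth muscle, had log2 signals of 8.75 with and 6.72 without retinoic acid in the Ctcfl line, and 7.98 with and 6.52 without it in wild-type cells (adjusted p = 0.00486 in limma). Both undifferentiated signals were within the background guide, so no fold is given. The fibronectin receptor subunit gene Itga5 rose 2.06-fold (adjusted p = 0.0134 in limma). Tgfb1i1 belongs to this list too, and Pdlim7, which encodes an actin-associated protein, rose 1.77-fold (adjusted p = 0.0309 in limma). Nexn, whose product binds actin filaments, also passed (adjusted p = 0.0265 in limma), with signals within the background guide on 3 of 4 arrays, and no fold is given. The adhesion molecule gene Mcam had a difference of responses of log2 1.09, with log2 signals of 9.01 with and 8.88 without retinoic acid in the Ctcfl line, and 8.29 with and 9.26 without it in wild-type cells.

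Of 17 non-muscle relatives of the 10 genes, such as cytoplasmic actins, Cnn3, Tagln2, Tpm3 and Tpm4, 0 rose and 0 fell with retinoic acid in limma. Among all genes 4.21% rose and 2.44% fell. An unadjusted p under 0.05 in limma was reached by 3 of the 17, all higher, and by 23.5% of all genes. The median effect of the 17 relatives was log2 0.08. Tpm4 was the 1 relative at least 2-fold higher in wild-type cells (log2 1.01), where 2.58% of all genes were. In the Ctcfl line Tpm4 was higher by log2 0.17. Of 27 striated muscle genes, 0 rose and 0 fell in limma, and 1 had an unadjusted p under 0.05, again beside 23.5% of all genes, with a median of log2 -0.17. The mean log2 signal of all 28 on that list was 7.02 with and 7.19 without retinoic acid in the Ctcfl line, and 7.08 with and 7.21 without it in wild-type cells. With the line, 0 of the 162 genes of the 11 lists rose or fell in limma, and 20 had an unadjusted p under 0.05, as did 9.81% of all genes.

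Some markers of other cell types also passed for retinoic acid, where 4.21% of all genes rose and 2.44% fell. Of 15 genes of mesenchyme and fibroblasts, 4 rose and 1 fell, and the median effect of the 15 was log2 0.18. The mean log2 signal of the 15 was 8.05 with and 7.64 without retinoic acid in the Ctcfl line, and 8.45 with and 7.74 without it in wild-type cells. Pdgfra and Pdgfrb, receptors for platelet-derived growth factor, rose 2.19-fold and 2.07-fold (adjusted p = 0.0245 and 0.0131 in limma), and Thy1, a surface glycoprotein, fell by 1.16 on the log2 scale (adjusted p = 0.0227). The matrix proteoglycan genes Dcn and Lum also rose, from undifferentiated signals within the background guide. Lum was within the guide in the Ctcfl line in retinoic acid too (log2 5.78), and only just above it in wild-type cells in retinoic acid (log2 7.02). Twist1, a mesenchymal bHLH factor, was highest in wild-type cells in retinoic acid, and its difference of responses was log2 -2.65. In the pericyte list of 8 genes Pdgfrb was the 1 that rose. Of 12 endothelial genes 1 rose, Emcn, which had log2 signals of 5.57 with and 4.76 without retinoic acid in the Ctcfl line, and 6.67 with and 4.95 without it in wild-type cells. Those values of Emcn are within the background guide. The endothelial genes Kdr and Cdh5 did not pass (adjusted p = 0.182 and 0.619 in limma). Both were highest in wild-type cells in retinoic acid, at log2 8.49 and 7.77, above the guide. Their differences of responses were log2 -1.54 and -1.42.

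Of 9 neural genes 4 rose and 2 fell, where 4.21% of all genes rose and 2.44% fell. The neural patterning gene Pax6 and Nes, which encodes the progenitor filament nestin, rose 3.15-fold and 2.38-fold (adjusted p = 0.0188 and 0.0154 in limma). Sox1 and Dcx also rose (adjusted p = 0.0111 and 0.00985), each from 1 undifferentiated signal within the background guide. The neuronal genes Elavl3 and Stmn2 had effects of log2 -0.88 and -0.76 and were the 2 that fell (adjusted p = 0.0282 and 0.0358 in limma), Stmn2 being named after its value was seen. Of 10 primitive endoderm genes 3 rose and 0 fell, with Foxa1 at 7.92-fold (adjusted p = 0.00199 in limma). Of 9 genes of embryonal carcinoma cells 0 rose and 6 fell, with a median of log2 -1.58. The part of the cell types of these lists in the contractile gene values, Myl9 and Tpm1 included, was not tested.

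**Figure D4:**
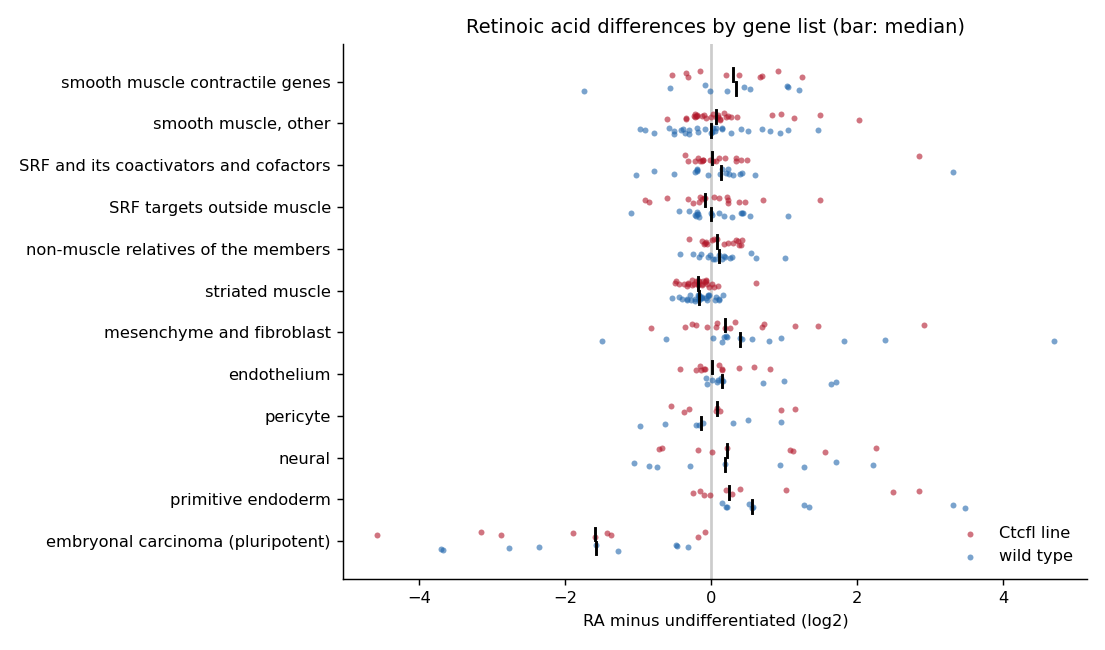
Log2 difference between retinoic acid and undifferentiated cells for the contractile genes and for the genes of the 11 lists past the filter, in the Ctcfl line (red, upper row of each list) and in wild-type cells (blue, lower row), 1 point per gene with the median as a bar. The contractile genes have medians of 0.29 and 0.34, and the embryonal carcinoma list lies furthest to the left.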

How the data were processed

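Per the labels, the authors ran RMA in Affymetrix Expression Console and deposited its output, 1 log2 signal per probe set and array. Transcriptome Analysis Console is also named in the submitters' processing notes; versions and the genome build are not given in the sources used here. Of 41345 probe sets, 23521 had 1 gene symbol in the platform annotation, 1814 had several and 16010 were not in it. Where several probe sets named 1 gene alone, the brightest on average stood for it, and genes below log2 6 on all 4 arrays were left out.

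Effects came from limma 3.58.1 (lmFit and eBayes, R 4.3.3) with 1 term each for retinoic acid and line and no interaction. This leaves 1 residual degree of freedom per gene with a prior of 5.49, treats unequal responses of the lines as error, and was adjusted over all genes at 0.05. Probe annotation and RefSeq tables supplied names and sequences. The procedure was tested on simulated data with independent noise and additive effects, so that test does not cover unequal responses of the lines. The members and lists were chosen with earlier results of these data known. Named genes were all members, Ctcfl, Srf and its coactivators, from each list the called genes with the smallest p (at most 5) and those with the largest difference of responses of at least 2-fold (at most 3), and the 6 genes nearest to Acta2. From these, the text gives those it describes. The alternatives tried were quantile normalization, averaging of probe sets, dropping the filter or raising it to log2 7, a prior that follows mean expression, 1.5-fold as the threshold, and means for medians.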

Additional observations from a re-analysis of the deposited data

Results flagged for a closer look

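For 5 of the 10 contractile genes the line difference, the Ctcfl line minus wild type, had opposite signs in the 2 states. With 1 array per condition none of these differences between the states was tested. The share of all genes with opposite signs was not computed, so the count of 5 is a description and not a trait of these genes. Cnn1 was higher in the Ctcfl line in retinoic acid (log2 0.87) and lower in undifferentiated cells (log2 -0.34), a change of log2 1.21. Tagln was lower in retinoic acid (-0.36) and higher in undifferentiated cells (0.31), a change of -0.67. Tpm1 was lower in retinoic acid by very little (-0.05) and higher in undifferentiated cells (0.49), a change of -0.54. The changes of Actg2 (-0.26) and Myh11 (-0.14) were below the SD between probe sets of a gene, log2 0.32, and Actg2 was within the background guide on 4 of 4 arrays, so its signs carry no clear direction.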

How the results depend on the processing

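Myl9 and Tpm1 passed for retinoic acid under each of the 5 alternatives to the limma fit, with adjusted p between 0.0101 and 0.0210 for Myl9 and between 0.0230 and 0.0433 for Tpm1. Cnn1 passed in addition with quantile normalization (adjusted p = 0.0358 in limma). That setting also raised the retinoic acid calls over all genes, from 1217 as reported to 1492. For the line, 0 of the 10 genes passed under any of them, while the calls over all genes, 8 as reported, were 23 with quantile normalization and 15 with a prior that follows mean expression. Only quantile normalization could move a member's effect, because each member has 1 probe set and the other settings act on the error or adjustment. With quantile normalization no effect of a member changed sign. Actg2 has no value with the filter at log2 7. At a 1.5-fold threshold the members apart were 4 for retinoic acid in the Ctcfl line (15.1% of all genes), 3 for the line in retinoic acid (5.38%) and 1 in undifferentiated cells (8.89%), and 3 for the difference of responses (12.4%). The mean in place of the median gave log2 0.10 for the line in retinoic acid, against a median of -0.07. Quantile normalization lowered the retinoic acid median in the Ctcfl line to log2 0.17, the effect of Acta2 to 0.13 and the 2-fold count in wild-type cells to 3. The same settings were applied to the other lists and named genes after seeing the data: Lum and Lama1 no longer passed without the filter (adjusted p = 0.0578 for both), Emcn and Nexn were below the filter at log2 7, where 4 other smooth muscle genes rose, and 1 non-muscle relative rose with the prior that follows mean expression. Signals near the background guide limit Actg2 most, and single arrays limit every difference.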
